A study of Mus musculus with 4 samples.

Results

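The UDP-glucuronosyltransferases (UGTs) were described in the livers of C57BL/6 wild-type mice that had received aristolochic acid I (AAI), the nephrotoxin of Aristolochia plants, or its corn oil vehicle. The 10 members were Ugt1a1, Ugt2a3, Ugt2b1, Ugt2b5, Ugt2b34, Ugt2b35, Ugt2b36, Ugt2b38, Ugt3a1 and Ugt3a2, and every probe that the array annotation names for them was read on all arrays. Probes were found for 9 of the 10 members. No probe carried the name Ugt1a1. The 9 members had 11 of the 56605 probes on the array, 3 of them for Ugt3a2 and 1 for each other member.

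There were 4 groups, and each was 1 array of liver RNA pooled in equal amounts from 5 mice, aged 6 weeks by the labels. Injections were intraperitoneal, on 5 days of each week for 3 weeks. Females received 5 mg/kg/day of AAI and males 2 mg/kg/day, while the control pool of each sex received corn oil. Sex and dose therefore cannot be told apart in the AAI-treated groups. Since each group was 1 array, the differences below have no replicate check and no test. The yardsticks given in their place are the spread between probes of the same gene and the error estimate of the scanner software, and neither includes the spread between mice.

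UGTs are enzymes of the endoplasmic reticulum that attach a sugar, mostly glucuronic acid from UDP-glucuronic acid, to steroids, bile acids, bilirubin and drugs, and so make them soluble for excretion in bile and urine. The Ugt1a enzymes come from a single locus in which each first exon is spliced to the same downstream exons, and Ugt1a1 is the enzyme of bilirubin conjugation. The Ugt2b genes lie in a cluster and act largely on steroids and foreign compounds, whereas the Ugt3a enzymes use other sugar donors. In rodent liver several UGTs are known to differ between the sexes.

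The sequences just before the start sites of the clustered Ugt2b genes are shown because several of the members that were higher in male controls, described below, share letters there. Each line gives the last 100 bases before the start in the RefSeq promoter table on build GRCm38.p6, 5′ to 3′ on the strand of the gene. The table held 9 of the 10 members, all but Ugt3a2. Capitals mark matches to GTTATANTTTAAC and the run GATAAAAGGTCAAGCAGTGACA, both picked after reading these windows. The windows are Ugt2b36 at chr5:87092556-87092655, Ugt2b5 at chr5:87140341-87140440, Ugt2b38 at chr5:87424204-87424303, Ugt2b1 at chr5:86926504-86926603 and Ugt2b34 at chr5:86906938-86907037, all on the minus strand, and Ugt2b35 at chr5:87000760-87000859 on the plus strand.
Ugt2b36: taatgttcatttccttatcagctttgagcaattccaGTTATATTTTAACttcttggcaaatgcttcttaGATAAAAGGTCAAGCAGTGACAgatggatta
Ugt2b5: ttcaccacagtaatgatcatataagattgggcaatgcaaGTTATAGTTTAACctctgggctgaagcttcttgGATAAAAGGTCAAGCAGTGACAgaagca
Ugt2b38: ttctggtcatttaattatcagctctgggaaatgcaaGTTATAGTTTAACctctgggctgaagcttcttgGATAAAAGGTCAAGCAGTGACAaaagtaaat
Ugt2b35: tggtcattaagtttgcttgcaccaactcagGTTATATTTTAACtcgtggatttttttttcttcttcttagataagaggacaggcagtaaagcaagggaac
Ugt2b1: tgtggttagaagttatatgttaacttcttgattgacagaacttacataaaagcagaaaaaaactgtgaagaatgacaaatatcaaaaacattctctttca
Ugt2b34: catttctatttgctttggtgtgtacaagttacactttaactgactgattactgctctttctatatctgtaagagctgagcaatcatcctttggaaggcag

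GTTATANTTTAAC, read on both strands of the 300-base windows of the table, occurred in 6 of 32851 windows (0.0183%). Of these, 5 belonged to Ugt2b genes, namely Ugt2b35, Ugt2b36, Ugt2b5, Ugt2b38 and their neighbour Ugt2b37, and the remaining window to Pklr, which encodes a pyruvate kinase of the liver. In the Ugt2b genes its letters lay between positions -78 and -49 from the start. Allowing 1 letter to differ, 34 windows (0.104%) held it, among them those of all 7 Ugt2b genes read, Ugt2b1 and Ugt2b34 included. The run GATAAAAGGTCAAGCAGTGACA occurred in 4 windows (0.0122%), those of Ugt2b36, Ugt2b5, Ugt2b37 and Ugt2b38, and it contains the nuclear receptor core sequence AGGTCA, which by itself stood in 16.3% of all windows. This run was chosen as the longest stretch common to the lines shown for Ugt2b36, Ugt2b5 and Ugt2b38. Its presence in those genes was thus fixed in advance, and its share of all windows does not measure enrichment. Aligned end to end, the windows of Ugt2b5 and Ugt2b38 were 84.2% identical and those of Ugt2b36 and Ugt2b38 63.9%. The window of Ugt2b1 was at most 49.1% identical to that of any other UGT gene compared, and neither pattern stood in it. TTCNNNGAA, the core of sites bound by STAT5, stood in 8.30% of all windows and in none of the 10 UGT windows read.

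The probes that read Ugt2b36 and Ugt2b38 are shown because nearby Ugt2b genes are alike and a probe could read a neighbour. Both are given 5′ to 3′ on the minus strand, with probe positions on the array's build, mm9. The Ugt2b36 probe spans an exon junction within chr5:87495455-87509913, and the annotation also lists a Ugt2b37 transcript for it, so its signal may hold both genes. The Ugt2b38 probe lies at chr5:87839345-87839404.
Ugt2b36 probe: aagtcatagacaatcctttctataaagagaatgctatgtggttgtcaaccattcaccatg
Ugt2b38 probe: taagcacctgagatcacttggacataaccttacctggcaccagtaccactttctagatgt

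Between probes of different UGT genes, the longest run in common was 18 bases, AACTTTCAGCCTCATTCT, in the probes of Ugt2b5 and Ugt2b37. The next longest was 11 bases, between Ugt2b35 and Ugt2b37. How far the neighbours' transcripts bind each other's probes was not tested.

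The signal of each member is given as log2 of the processed intensity after quantile normalization over the 4 arrays. Each array held 59305 spots that were not controls, of which 70 to 234 were marked as outliers and left out. By the scanner software, 74.7% to 81.5% of the probes were well above background. All 11 probes of the members were well above background on every array, and none was saturated or marked. Repeated spots of a probe on an array had a typical SD of 0.05 to 0.08 on the log2 scale. The typical SD between probes of the same gene was 0.23 to 0.25 for a log2 ratio, over 8618 to 9128 genes with several probes, and the software's error estimate for a member's ratio was 0.20.

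Of the 9 members, all had their highest signal in corn oil-treated males. Genes outside the family described below, such as Abcg2, Apob and Hnf4a, were also highest there, while others, such as Nr1i2 and Nr1i3, were not. The share of all genes highest on that array was not counted, so this pattern is not shown to be particular to the UGTs. The lowest signal was that of the female controls for 3 members, of AAI-treated females for 3 and of AAI-treated males for 3. In male controls, 5 members, all Ugt2b genes, were at least 2-fold above female controls. After AAI, 3 members, all among these 5, were at least 2-fold lower in males, and no member differed 2-fold from its control in females. Over all genes tested, 3.83% were at least 2-fold higher in male than in female controls. After AAI, 4.59% were at least 2-fold lower in males and 4.46% differed 2-fold in females. With so few members, the lack of such a member in females cannot be set apart from the latter share. The comparison of the control sexes and the AAI comparison in males share the male control array.

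**Figure D1:**
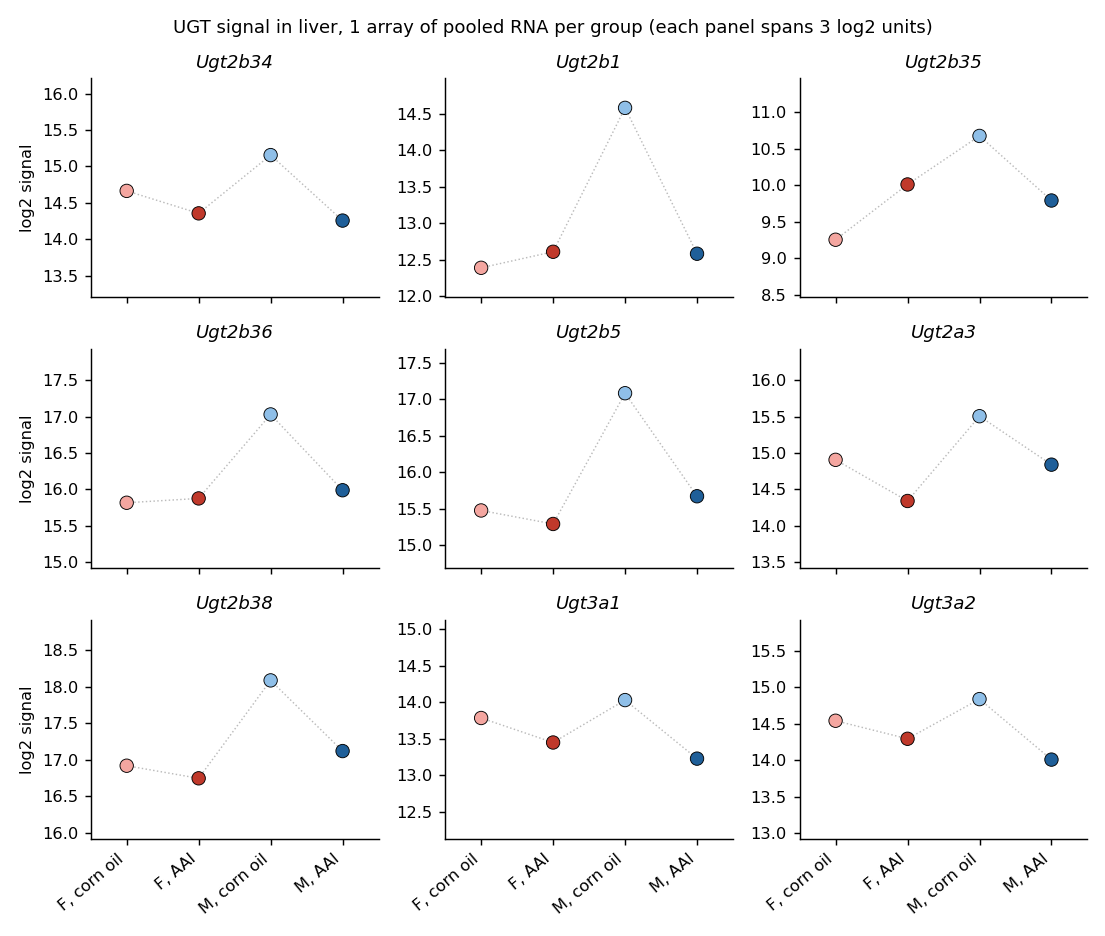
Log2 signal of the 9 members on the 4 arrays, in females (F) and males (M), with 1 panel per gene, each spanning 3 log2 units, and 1 point per array of pooled RNA. Corn oil-treated males gave the highest point in all 9 panels, and in Ugt2b1 the other points lay within 0.22 of each other.

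Ugt2b1 (NM_152811, probe at chr5:87346310-87346369 of mm9) had log2 signals of 12.39 in female controls and 12.61 after AAI in that sex, and of 14.58 in male controls and 12.58 after AAI. The male control stood alone, and the other arrays were within the spread between probes of each other. Signal in male controls was 4.57-fold that in female controls (log2 ratio 2.19), and AAI-treated males were 4-fold below their control (log2 ratio -2.00). These were the largest differences among the members in both comparisons.

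Ugt2b5 (NM_009467, probe at chr5:87554155-87554214) gave 15.48 and 15.29 in corn oil- and AAI-treated females and 17.08 and 15.67 in the corresponding males. Its signal was 3.05-fold higher in male than in female controls and 2.66-fold lower in AAI-treated males than in male controls, with log2 ratios of 1.61 and -1.41. AAI-treated males remained 0.38 above AAI-treated females, more than the spread between probes.

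Ugt2b36 (NM_001029867) gave 15.82, 15.88, 17.03 and 15.99 in the order corn oil- and AAI-treated females, then corn oil- and AAI-treated males. The male control was 2.31-fold above the female control, and AAI-treated males were 2.05-fold below the male control, a log2 ratio of -1.04 that lies within the spread between probes of the 2-fold threshold. All arrays but the male control lay within 0.17 of each other.

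Ugt2b38 (NM_133894) gave 16.92, 16.74, 18.09 and 17.12 in the same order. The male control was 2.25-fold above the female control (log2 ratio 1.17). AAI-treated males were 1.96-fold below their control, which misses the threshold at a log2 ratio of -0.97. The pattern over the arrays was the same as in Ugt2b5, with the male control highest and AAI-treated females lowest.

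Ugt2b35 (NM_172881, probe at chr5:87440554-87440613) gave 9.25, 10.01, 10.68 and 9.79, again highest in male controls but lowest in female controls. It was 2.68-fold higher in male than in female controls. Its log2 ratio for AAI was 0.76 in females and, in the opposite direction, -0.89 in males. Neither value reached 2-fold, and both were larger than the spread between probes. Ugt2b1 and Ugt2b36 also had ratios of opposite sign, but those in females were within that spread.

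Ugt2b34 (NM_153598, probe at chr5:87318849-87318908) lies at the end of the cluster next to Ugt2b1 and gave 14.66, 14.36, 15.16 and 14.26. Its log2 ratio was 0.49 between male and female controls, -0.90 for AAI in males and -0.31 for AAI in females. AAI-treated males had the lowest signal, 0.10 below AAI-treated females.

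Ugt2a3 (NM_028094, probe at chr5:87754406-87754465), a UGT whose human counterpart conjugates bile acids, sits within the same cluster. Its signals were 14.91, 14.34, 15.50 and 14.84. AAI-treated animals were lower than controls by similar amounts in the sexes, with log2 ratios of -0.56 (females) and -0.66 (males), and males were higher than females by 0.60 under corn oil and by 0.50 under AAI. Both treatments and both sexes were thus separated by more than the spread between probes.

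Ugt3a1 and Ugt3a2 lie side by side on chromosome 15. The human enzymes use UDP-N-acetylglucosamine (UGT3A1) and UDP-glucose or UDP-xylose (UGT3A2). Ugt3a1 (NM_207216, probe at chr15:9244274-9244333) gave 13.78, 13.45, 14.03 and 13.23, and the brightest probe of Ugt3a2 (NM_144845, at chr15:9300203-9300262) gave 14.54, 14.29, 14.84 and 14.01. In each gene the male control was highest and AAI-treated males were lowest.

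The log2 ratio for AAI in males was -0.80 in Ugt3a1 and -0.83 in Ugt3a2, and the other probes of Ugt3a2 gave -0.71 and -0.98. In females it was -0.34 in Ugt3a1 and -0.25 in Ugt3a2, with -0.49 and -0.65 at the other Ugt3a2 probes. Male controls were above female controls by 0.25 and 0.30, or by 0.02 and 0.04 when arrays were scaled to their 75th percentile in place of quantile normalization, so that in the Ugt3a genes the difference between the control sexes was smaller than the difference between treated and control males. At the other Ugt3a2 probes, the control sexes differed by 0.08 and 0.29.

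In corn oil-treated animals, the members at least 2-fold higher in males were Ugt2b1, Ugt2b5, Ugt2b35, Ugt2b36 and Ugt2b38, 5 of 9, and none was 2-fold lower. Over all genes tested, 3.83% were at least 2-fold higher in males, and among the 8117 genes with a mean signal at least that of the dimmest member it was 1.6%. All 9 members had a ratio above 0, against 47.3% of all genes. The median log2 ratio of the members was 1.17 and that of all genes -0.03. In their mm9 order along chromosome 5, the genes past 2-fold were Ugt2b1, Ugt2b35, Ugt2b36, Ugt2b5 and Ugt2b38, with Ugt2b34 before them and Ugt2a3 between the last 2. Of these 5, 4 carry GTTATANTTTAAC in the windows shown above and Ugt2b1 does not. No member short of 2-fold whose window was read carries it exactly, but Ugt2b34, which is short of 2-fold, and Ugt2b1 carry it with 1 letter changed, so that the near pattern does not separate the Ugt2b members. This describes a small family whose neighbours are alike in sequence, and it was not tested.

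In males, AAI-treated animals were lower than corn oil-treated animals in all 9 members, with log2 ratios from -2.00 (Ugt2b1) to -0.66 (Ugt2a3) and a median of -0.90. Of the 9, 3 passed 2-fold, namely Ugt2b1, Ugt2b5 and Ugt2b36, while 4.59% of all genes tested were at least 2-fold lower, or 1.72% of the 8117 genes at least as bright as the dimmest member. The share of all genes with a ratio below 0 was 48.2%, and their median was 0.00. For 6 members the ratio lay within the spread between probes of the threshold, so the count of 3 is not firm, whereas each of the 9 ratios was farther from 0 than that spread. Because the comparison of the control sexes and the AAI comparison in males share the corn oil-treated male array, a high or low reading on that array moves both, and the values above are given side by side only.

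**Figure D2:**
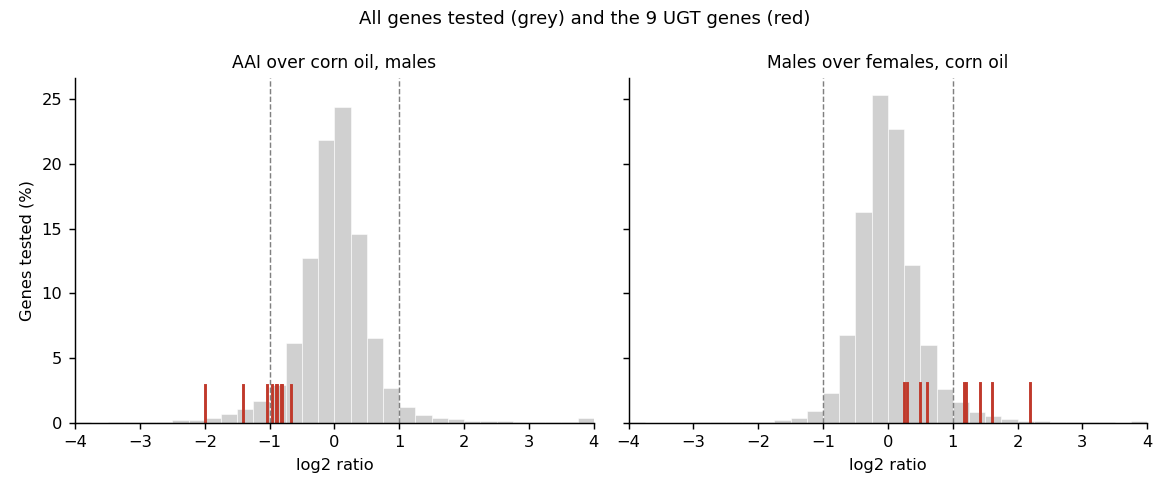
Share of all genes tested (grey bars, % of genes) by log2 ratio in bins of 0.25, with the 9 members as red lines and the 2-fold limits as dashed lines, for AAI over corn oil in males (left) and males over females under corn oil (right). Values beyond 4 are counted in the outermost bins. All 9 members lie below 0 on the left and above 0 on the right, where 5 pass the limit.

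The AAI-treated groups, which do not involve the male control array, were compared between the sexes after the values above were known. No member differed by 2-fold in either direction, and 4.42% of all genes tested did. With so few members, a count of none cannot be set apart from that share. The ratios of males over females ran from -0.29 (Ugt3a2) to 0.50 (Ugt2a3), with a median of -0.03, and 53.3% of all genes were below 0. Ugt2b1 differed by -0.03 and Ugt2b36 by 0.11, both under the spread between probes. Ugt2b5, Ugt2b38 and Ugt2a3 were higher in males by more than that spread, at 0.38, 0.37 and 0.50, and the brightest Ugt3a2 probe was lower by more, which its other probes, at -0.15 and -0.05, were not. The mice of these groups had received different doses.

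In females, no member was 2-fold different between AAI and corn oil, and 4.46% of all genes tested were. With so few members, finding none cannot be set apart from that share. Ratios were below 0 in 6 members and above 0 in 3, Ugt2b1, Ugt2b35 and Ugt2b36, with a median of -0.19 beside 0.04 over all genes. Ugt2b35, at 0.76, had the largest ratio. Besides Ugt2b35, the members beyond the spread between probes were Ugt2a3, Ugt2b34 and Ugt3a1, all lower after AAI. The remaining 5 members differed by less than that spread at their brightest probe.

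**Figure D3:**
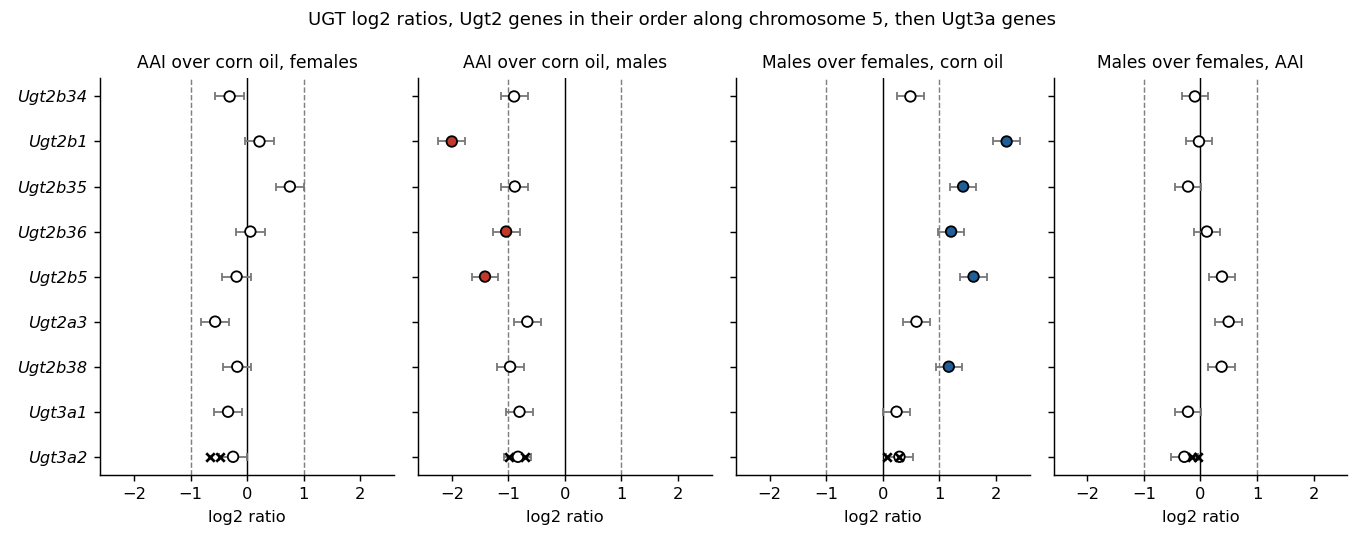
Log2 ratios of the 9 members in 4 comparisons, as named above each panel. Circles are the brightest probe, filled past the 2-fold limits (dashed), bars are the typical SD between probes of the same gene, and crosses are the other Ugt3a2 probes. In AAI-treated animals (right panel) all ratios lie between -0.29 and 0.50.

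Ugt1a1 could only be approached through the exons that the Ugt1a genes share. A Ugt1a6b probe at chr1:90115493-90115552 of mm9, whose annotation also lists transcripts of Ugt1a6a and Ugt1a10, gave 16.43 and 16.27 in corn oil- and AAI-treated females and 15.91 and 16.26 in the corresponding males. A second, at chr1:90114900-90114959, gave 14.58, 14.84, 13.99 and 14.34. At both, the control male was the lowest array, the reverse of the 9 members, with log2 ratios of -0.52 and -0.59 between male and female controls and of 0.35 and 0.34 for AAI in males. A Ugt1a6a probe at chr1:90116514-90116573, for which a Ugt1a1 transcript is listed, was dim at 4.73, 4.51, 5.62 and 4.65, and was not well above background in AAI-treated males. None of these probes measures Ugt1a1 by itself. The Ugt1a6b probes may sum over the Ugt1a transcripts that hold the shared exons. The dim probe lay far below them on every array, so it did not read the same sum, and the reason was not tested.

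Apart from the members, 6 further UGT genes were on the array, with 10 probes. Ugt2b37, which lies between Ugt2b5 and Ugt2a3, gave 14.51, 14.44, 16.44 and 14.85. Its male control was the highest array, as in the members, with log2 ratios of 1.93 between the control sexes and -1.59 for AAI in males. Ugt1a10 ran the other way, giving 9.88 and 10.11 for the female pools and 8.32 and 8.85 for the male pools, a log2 ratio of -1.56 between the control sexes. The annotation lists another RefSeq transcript for its probe as well, so the signal may hold more than Ugt1a10. In Ugt2a1, a UGT of the olfactory epithelium, the arrays ran from 10.24 to 10.59. Ugt8a, which makes galactosylceramide for myelin, was near background, with 5.42 to 6.14 at its brightest probe and its other 2 probes not well above background on any array. A probe in the first exon of Ugt1a6b was higher after AAI in females (8.97 and 10.14, log2 ratio 1.17), which the shared-exon probes of the same gene, at -0.16 and 0.25, did not show.

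The genes that make the donor or carry the products away were read in the same way. Of 12 genes of UDP-glucuronic acid supply and use, 0 passed 2-fold in either sex after AAI, and their median log2 ratios were 0.15 in females and -0.24 in males. Ugp2, which makes UDP-glucose, had ratios of 0.11 and -0.38 in females and males. Ugdh, which oxidises UDP-glucose to UDP-glucuronic acid, had 0.41 and -0.27. Among 5 transporters of glucuronides and bilirubin the medians were 0.25 and -0.37, and the only gene past 2-fold was Abcg2, an efflux pump of the canalicular membrane. Over all genes tested, 4.46% passed 2-fold after AAI in females, and in males 4.59% were lower and 3.51% higher. With lists this short, the counts cannot be set apart from those shares.

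Abcg2 gave log2 signals of 12.57 and 13.39 in corn oil- and AAI-treated females and 14.12 and 13.06 in the corresponding males. Its ratio was 0.82 in females and -1.06 in males, and male controls were above female controls by 1.55. As in the Ugt2b members, the male control was the highest array. Abcc2, which exports conjugates into bile, had ratios of 0.45 and -0.37, and Abcc3, which exports them into blood, 0.25 and 0.09, although its other probe read -0.29 in females. Of 4 genes of bilirubin production none passed 2-fold, with 0.33 and 0.17 for Blvra (biliverdin reductase) and -0.32 and -0.44 for Hmox1 (haem oxygenase). The second Hmox1 probe gave the opposite sign, 0.67 and 0.20, so no direction is given for it.

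Of 19 regulators of UGT genes, 2 were at least 2-fold lower after AAI in females and none higher, and in males 1 was lower and 1 higher. Over all genes tested, 3.09% were at least 2-fold lower and 1.37% higher in females, and in males 4.59% were lower and 3.51% higher, so that the counts in males are close to those shares. The median ratios were -0.33 in females and -0.29 in males. Lower in females were Nr1i2 (the xenobiotic receptor PXR), at -1.22 against -0.28 in males, and Onecut1 (HNF6), at -1.31 against -0.97. The second Onecut1 probe gave -0.49 and -0.62. Lower in males was Foxa1, a pioneer factor of liver genes, at -1.11 against -0.61 in females.

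Cux2, a repressor known for its higher expression in female liver, gave 8.40 and 8.01 in corn oil- and AAI-treated females, and 5.53 and 8.78 in the corresponding males. Only the male control was low, the mirror image of Ugt2b1. Its ratio for AAI in males was 3.25, with 2.11 as the lowest of its 3 probes, and male controls were 2.87 below female controls on the log2 scale. Stat5b, which carries the growth hormone signal, had ratios of -0.13 and -0.29, with 0.39 in females at its other probe. Of the other regulators, those named whatever their value did not pass 2-fold, with female and male ratios of 0.25 and 0.38 for Nr1i3 (CAR), 0.25 and -0.66 for Ahr, -0.61 and -0.21 for Nfe2l2 (Nrf2), and -0.42 and -0.38 for Hnf4a. The second probes of Ahr and Nfe2l2 turned the sign in males, to 0.10 and 0.88, and that of Nr1i3 turned it in females, to -0.05. The second Hnf4a probe gave -0.96 in females and -0.27 in males.

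Whether the pools were liver alone was read from marker lists. All 10 hepatocyte markers were well above background on every array, with a summed log2 signal of 20.83 to 20.92. That sum comes mostly from Alb and Serpina1a, which lie at the top of the scale that quantile normalization makes equal on all arrays, so it does not measure the hepatocyte content. None of the 10 passed 2-fold for AAI in either sex, and their median ratios were 0.04 in females and -0.09 in males. Between the control sexes 1 of them did, Apob, which was 1.41 higher in male controls and had a ratio of -0.94 for AAI in males, and so was also highest in male controls. Markers of other tissues differed with treatment, and some also between the control sexes. In male controls, 9 of 10 skeletal muscle markers and 5 of 7 adrenal cortex markers were at least 2-fold above female controls. Their median log2 ratios were 3.21 and 1.15. For brown fat it was 2 of 5 markers and for adrenal medulla 1 of 5, against 3.83% of all genes tested. All 10 skeletal muscle markers were at least 2-fold higher after AAI in both sexes, with a median log2 ratio of 6.21 in each, and the summed signal was 9.32 and 15.57 in corn oil- and AAI-treated females and 12.43 and 18.63 in the corresponding males. Of these, Myh1 alone was not well above background, in corn oil-treated females.

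In males, 5 of 5 brown fat markers, 5 of 7 adrenal cortex markers and 4 of 6 adrenal medulla markers were at least 2-fold higher after AAI, and in females 1, 0 and 0 were. Of the adrenal cortex markers in males, Mc2r went the other way, with a log2 ratio of -2.07, and Cyp11b2 had -0.12. The adrenal counts depend on the probe read. Nr5a1 and Cyp21a1 were counted at 1.48 and 3.78, but their other probes gave -0.28 and 0.46. Dbh was not counted at 0.37, and its other probe gave 5.11. The summed signal of adrenal cortex markers was 11.64 to 12.13 on the other arrays and 15.01 in AAI-treated males, that of adrenal medulla markers 11.45 to 11.86 and 14.13, and that of brown fat markers 11.21 to 12.76 and 16.09. Ucp1, which defines brown fat, had no probe signal well above background in females. The brown fat marker past 2-fold in females was Cox8b, at a log2 ratio of 5.47. In AAI-treated males the brown fat sum came mostly from Cox8b (15.19) and Cox7a1 (14.28), with Ucp1 at 12.89. Whether muscle adds to this sum was not tested.

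Kidney and intestine also express UGTs. Of 12 kidney markers, 10 were above background on each array but that of AAI-treated females, where all 12 were, with a summed signal of 11.66 to 12.02. Cubn and Kap were the dim markers. Of 9 intestine markers, 6 or 7 were above background, and Cdx2 and Krt20 were dim on all arrays. The summed intestine signal, 14.91 to 15.79, came mostly from Fabp2, which liver may also express. AAI-treated males, whose UGT log2 ratios to the male control ran from -2.00 to -0.66, thus also gave the highest summed muscle, brown fat and adrenal signals. The part of the other tissues in the UGT differences, after AAI or between the control sexes, was not tested. In bulk RNA, fewer hepatocytes and less UGT RNA per hepatocyte cannot be told apart.

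**Figure D4:**
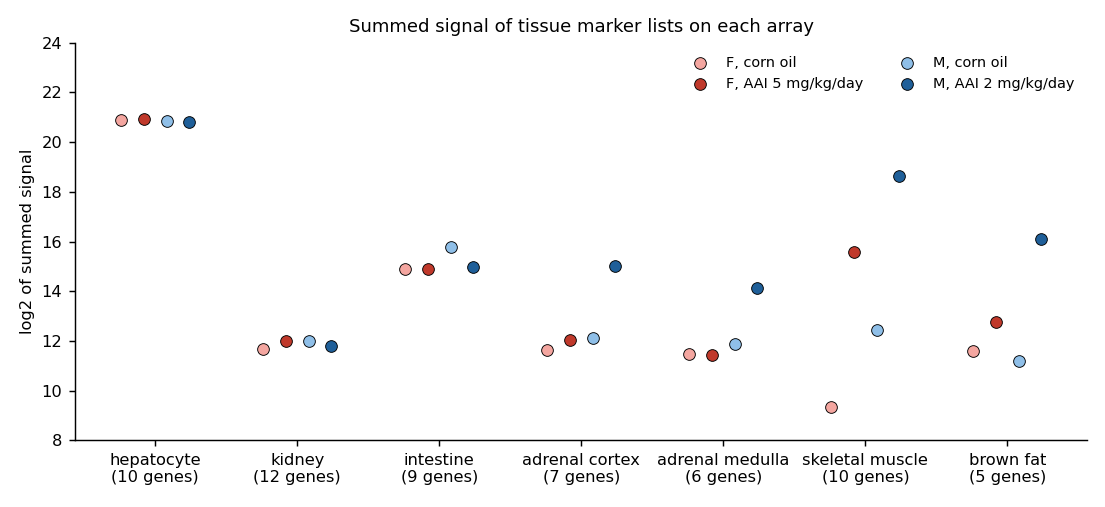
Log2 of the summed signal of each tissue marker list on each of the 4 arrays, in females (F) and males (M), with 1 point per array of pooled RNA. Skeletal muscle runs from 9.32 to 18.63, and the hepatocyte sum is held near 20.83 to 20.92 by genes at the top of the normalized scale.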

How the data were processed

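Liver RNA of 4 groups was labelled with Cy3 and hybridised to single-colour Agilent mouse arrays on 1 slide, with 1 array of pooled RNA per group. The authors used Feature Extraction 10.5.1.1 to quantify the arrays, and the deposited processed intensity of each spot is background-subtracted, corrected for trends across some arrays, linear and not normalized between arrays. A deposited table of the series also holds their normalized intensity, which was used as an alternative. Array files give no counts, so the number of arrays limits the precision. The files of 2 arrays hold gene names turned into dates, so each probe was named from the remaining files.

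The members and the gene lists were chosen with earlier results of these data known. Control spots and outlier spots were left out, spots of a probe were averaged on the log2 scale, and the 56495 of 56605 probes that had values on all arrays were quantile normalized over the 4 arrays (Python 3.11.15, numpy 2.4.6, pandas 2.3.3). The brightest probe stood for a gene, which left 37021 gene names with a value. A log2 ratio needed a probe well above background on 1 or both arrays compared, and was a lower bound in the first case. A gene was counted at a 2-fold difference, and the steps were tested on simulated data. Quantile normalization and the 2-fold size follow the study, whose legend also asked for a p-value that was not used here. No test was possible with 1 array per group.

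Genes named were all members, other UGT genes past 2-fold in any comparison, genes of the pathway lists past 2-fold after AAI in either sex (at most 5 a list), and a fixed set of pathway genes named whatever their value. Some listed genes are not reported here by name. Ugt2a1, Ugt8a, the Ugt1a6 probes, Stat5b, Akr1a1, Cryl1 and Apob were named after their values were seen. So were the tissue markers Mc2r, Cyp11b2, Nr5a1, Cyp21a1, Dbh, Cox8b and Cox7a1. The 8 alternatives were scaling to the 75th percentile, normexp background (limma 3.58.1 in R 4.3.3, offset 50), no multiplicative detrending, the authors' normalized columns, the mean of a gene's probes, no filter on dim probes, a 3-fold threshold, and outlier spots kept. The comparison of AAI-treated males with AAI-treated females and the background of bright genes were added after seeing the data.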

Additional observations from a re-analysis of the deposited data

Results flagged for a closer look

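Among the members and the pathway genes named by rule, 5 had a log2 ratio of AAI over corn oil that pointed in opposite directions in the sexes, each time by more than the spread between probes of the same gene. Ugt2b35 had 0.76 in females and -0.89 in males. Ugdh had 0.41 and -0.27, Abcc2 0.45 and -0.37, and Abcg2 0.82 and -1.06. Cux2 had -0.39 in females and 3.25 in males. Genes of the lists that are not named by rule did so too, among them Akr1a1 at 0.32 and -0.57, Cryl1 at 0.39 and -0.47 and the hepatocyte marker Apob at 0.47 and -0.94. The other Cryl1 probe turned the sign in females, to -0.42, so opposite directions are not settled for that gene. With 1 array per group the difference between the sexes was not tested, and the doses were 5 mg/kg/day in females and 2 mg/kg/day in males.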

How the results depend on the processing

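Under the 7 alternatives other than the 3-fold threshold, all 9 members stayed below 0 for AAI in males and above 0 between the control sexes. Not all of these could move a member. Dropping the filter on dim probes left every member's ratio as it was, since all their probes were well above background. The mean of a gene's probes could change only Ugt3a2. The median log2 ratio of the members ran from -0.94 to -0.83 for AAI in males, from 0.94 to 1.21 between male and female controls, from -0.20 to -0.16 for AAI in females and from -0.05 to 0.02 between the AAI-treated sexes. At a 3-fold threshold, 1 member was lower after AAI in males and 2 were higher in male than in female controls, by construction of the stricter limit. With scaling to the 75th percentile these counts were 2 and 4, with normexp background and without detrending 2 members were lower in males, and with the authors' normalized columns 4 were. The ratio of Ugt2b36 in males ran from -1.04 to -0.83, and that of Ugt2b38 from -1.01 to -0.90. Scaling to the 75th percentile moved 5 ratios between the control sexes by more than the spread between probes, to 0.27 for Ugt2a3, 1.37 for Ugt2b5, 0.19 for Ugt2b34, 0.94 for Ugt2b36 and 0.04 for Ugt3a2, and that of Ugt3a1 to 0.02 by just under that spread, and the cause was not tested. The sign differed in 2 of 63 single-member values in females and in 2 of 63 between the AAI-treated sexes, all of Ugt2b38 or Ugt2b1 and near 0. The 63 include the values that could not change. Over all genes, 978 were lower and 434 higher after AAI in females, against 745 and 623 with scaling to the 75th percentile, and between the AAI-treated sexes 367 and 1024 against 493 and 833. Lower genes after AAI in males numbered 1402, against 643 with normexp background, 2240 with no filter on dim probes and 510 at 3-fold. For higher genes in male controls, 1184 compared with 475, 1823 and 378. No paired analysis was possible because each group has 1 array.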
